A study of Mus musculus with 16 samples.

Results

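The 10 genes described here, Ugt8a, Mog, Mal, Cldn11, Mbp, Gsn, Car2, Sox10, Apod and Fyn, are genes of myelin and of oligodendrocytes, the glia that wrap axons of the central nervous system. They were taken by name: every probe set whose only symbol in the platform annotation is 1 of the 10 was used. That gave 13 probe sets of the 12488 on the array, for 10 of the 8251 genes that have a probe set of their own, because Cldn11, Mbp and Sox10 are each read by 2. Differences between groups were tested for 12 of the 13; the second Cldn11 probe set (161529_r_at), with a mean of 7.41 on the log2 scale, was under the minimum level for testing.

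The arrays measured total RNA of mouse spinal cord. The spastic mutation lies in Glrb, whose product anchors inhibitory glycine receptors at synapses, and homozygous mice become stiff and tremble; the study compared spastic with control cord. The control group was made of 8 arrays titled Ctr, 2 each for a 9-month female, a 9-month male, a 12-month female and a 12-month male, and the labels give no genotype or strain for it. The spastic group was made of 6 arrays titled Spa: 1 each of 2 samples of 2-month females (Spa1 and Spa2), 1 of a 3-month male titled sev, 1 of a male titled 3+ months, and 2 of a 6-month female titled Spa-M. The last group was made of 2 arrays of a 1-month male of B6C3Fe, a hybrid mouse stock, for which no mutation is titled. Arrays a and b of the same title were averaged as 1 sample, which gave 4 control samples, 5 spastic samples and 1 B6C3Fe sample. Nothing in the labels says whether a sample is 1 animal or a pool. Every spastic sample was younger than every control sample and older than the B6C3Fe sample, so that genotype, stock and age cannot be told apart in any of the 3 comparisons between groups. Sex as read from RNA, given below, also differed between the groups.

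Oligodendrocytes build myelin from lipid, above all cholesterol and galactolipids, and from a small set of very abundant proteins. In the mouse spinal cord most myelin is laid down in the first weeks after birth, and the genes that drive its assembly are expressed more strongly in that period than in the adult, in which myelin is maintained. Some genes used as oligodendrocyte markers are also expressed elsewhere: Gsn and Car2 in many tissues, Apod in perivascular cells and fibroblasts, and Fyn in neurons.

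Values are intensities on the log2 scale, so that a difference of 1 is a doubling. Intensities under 60.9 were set to that floor, 5.93 on the log2 scale. Differences were tested with limma, with 1 mean per group, and p-values were adjusted by the Benjamini-Hochberg method over all 7453 probe sets tested; a probe set was called at an adjusted p under 0.05. Differences in bulk RNA do not tell fewer cells of a type from less RNA per cell. With 1 sample, the B6C3Fe group was assumed to vary like the other groups.

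The check of the mutation was clear. Glrb was at 13.00 ± 0.12 (SD, n = 4) in controls, 12.95 in B6C3Fe and 10.57 ± 0.47 (SD, n = 5) in spastic cord, a difference of -2.42 between spastic and control (limma, adjusted p = 0.000181). The check of titled sex was not: Xist, an RNA made from the inactive X chromosome, was at 10.54 and 10.37 in the 2 spastic samples titled male, as in females, and the Y-linked Eif2s3y was at the floor in both. Titled sex was therefore kept out of the model. Xist was at 10.37 to 11.45 and Eif2s3y at the floor in all 5 spastic samples, the female pattern. B6C3Fe had the male pattern, with Xist at the floor and Eif2s3y at 8.83, and the controls held both patterns. Sex by these genes can thus not be told apart from genotype, stock and age in spastic minus B6C3Fe. Myelin RNA was measured on every array, since Mag (102405_at), Mobp, Mbp and Mog were far above the floor on all of them. The Cnp probe set, at 5.93 to 6.68 across samples, was at or near the floor. Mbp and Mog are members themselves, so these levels do not test the label of the gene group. One control array stood apart, array a of the 9-month female: 7.37% of tested probe sets differed by more than 1 between it and array b of the same title, against 1.36% to 4.43% for the other 5 pairs, and its 3-prime to 5-prime difference for the Pcx control probe sets, which rises when RNA is partly degraded or copied incompletely, was 2.72 against 1.31 to 2.09 on the other 7 control arrays. That difference was 2.00 to 2.98 on the spastic arrays and 1.67 and 1.89 on those of B6C3Fe. The same 3-prime to 5-prime difference for Actb, Gapdh and Tfrc was not higher in spastic than in control cord. Its means in spastic and control cord were -0.06 and 0.26 for Actb, -0.31 and -0.25 for Gapdh, and 0.81 and 1.48 for Tfrc. On the 2 B6C3Fe arrays it was -3.29 and -1.21 for Actb, lower than on every spastic or control array. For Gapdh it was -0.16 and -0.49 there, and for Tfrc 1.13 and 0.75. On array a of the 9-month female control it was 1.27 for Actb, 0.99 for Gapdh and 0.52 for Tfrc. The other 7 control arrays were at -0.45 to 0.44, -0.64 to -0.16 and 1.42 to 1.90, in that order. Among control arrays, that array was thus highest for Actb and Gapdh and lowest for Tfrc. The Pcx term is the Pcx difference used as a term in the model. It follows 1 control gene and was not tested as a general measure of RNA quality. Calls lost in fits with it are given with the members.

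The spastic cord did not differ from the control cord in the same way across these genes. Of the 12 member probe sets tested, Ugt8a and Car2 were called lower, 1 Sox10 probe set was called higher, and 9 were not called, while 19% of all tested probe sets were called, 8.61% higher and 10.4% lower. The median difference over the 12 was 0.09, against -0.03 over all probe sets tested. Against the 1-month B6C3Fe cord, 5 of the 12 were called lower in spastic cord and 0 higher, where 2.21% of all probe sets were called, 1.56% higher and 0.657% lower. The B6C3Fe cord in turn had 4 of the 12 called higher than in controls and 0 lower, where 0.698% of all probe sets were called, 0.134% higher and 0.564% lower. The 3 comparisons share samples, so each value is given for its own comparison. The 10 genes were chosen with earlier results of these data known, so their counts beside the shares of all probe sets are a description. Of 20 other myelin and oligodendrocyte genes tested, 0 were called in either comparison with B6C3Fe.

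**Figure D1:**
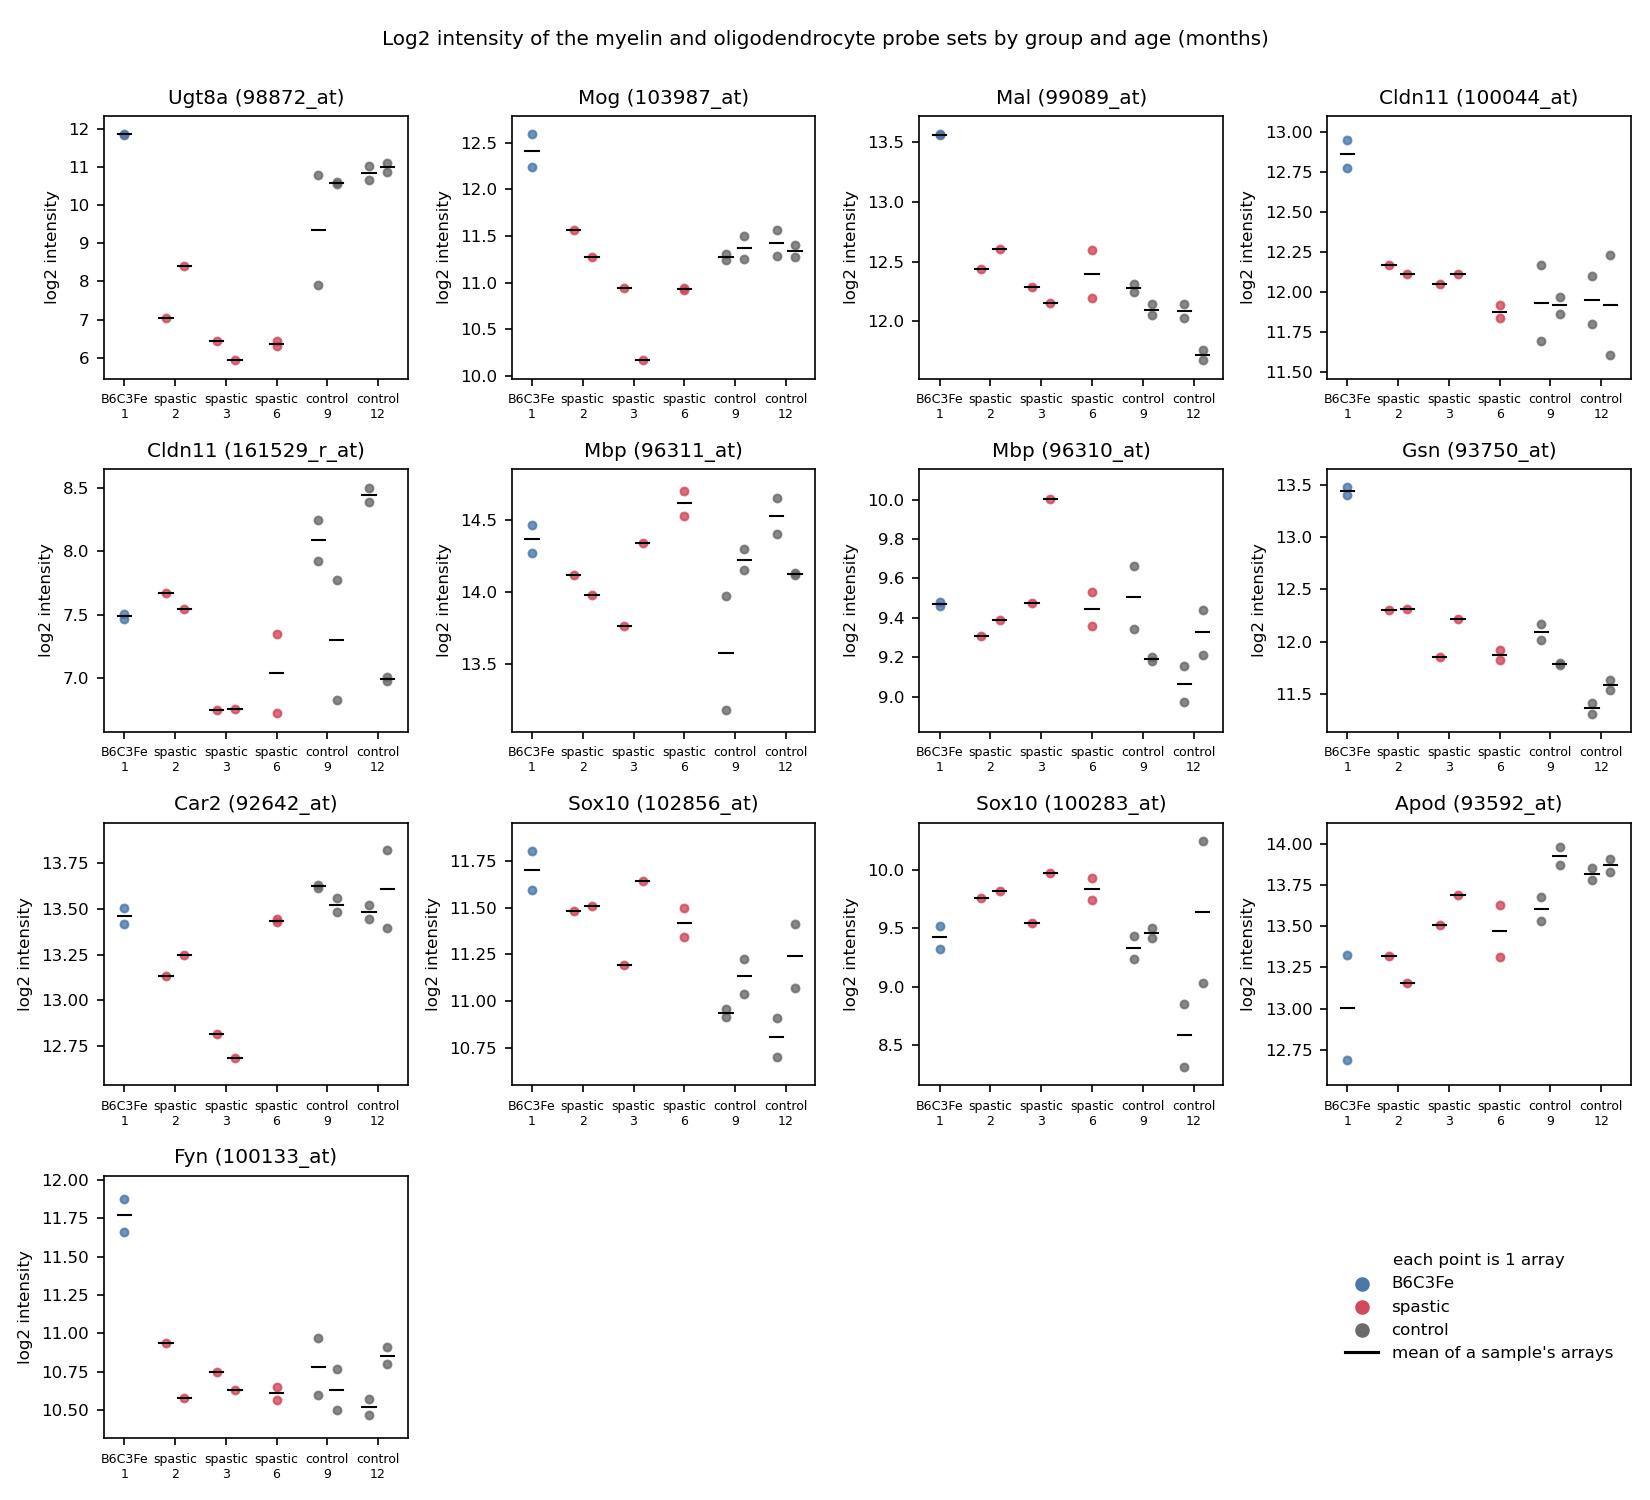
Log2 intensity of each of the 13 member probe sets, 1 panel per probe set, along B6C3Fe 1 month, spastic 2, 3 and 6 months and control 9 and 12 months; each point is 1 array and each line is the mean of a sample's arrays. Ugt8a is at 8.41 or lower on all 6 spastic arrays, Mal, Gsn, Cldn11 (100044_at) and Fyn are highest on the 2 B6C3Fe arrays, and both Mbp panels overlap between groups.

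Ugt8a encodes the enzyme that joins galactose to ceramide, the step that makes galactosylceramide, a lipid typical of myelin. Its gene lies on chromosome 3. In the B6C3Fe sample its probe set 98872_at was at 11.86. In spastic cord it was at 7.05 and 8.41 in the 2 samples of 2 months, 6.45 in the sev sample, 5.93, the floor, in the sample titled 3+ months and 6.36 at 6 months. Control samples were at 9.36 and 10.58 at 9 months and 10.84 and 10.998 at 12 months. All 5 spastic samples were thus below all 4 control samples, and the highest spastic sample was 1 of the 2 youngest.

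The group means of Ugt8a were 6.84 ± 0.96 (SD, n = 5) in spastic cord and 10.45 ± 0.74 (SD, n = 4) in control cord. The difference was -3.61 (SE 0.46, 95% interval -4.62 to -2.60), a 12.2-fold lower intensity, with an adjusted p of 0.00102 by limma. Against B6C3Fe it was -5.02 (SE 0.76, adjusted p = 0.00985), or 32.5-fold lower. Because 1 spastic sample was at the floor, both folds may understate the difference. B6C3Fe and control differed by 1.41 (95% interval -0.27 to 3.10, adjusted p = 0.409), which did not pass.

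The lowest control sample owed its place to 1 array. The 9-month female control gave 7.91 for Ugt8a on array a and 10.80 on array b, a difference of 2.89, whereas the 2 arrays of the other 5 paired titles differed by at most 0.36. On the scale of single arrays, 7.91 was below the highest spastic array, 8.41, so the groups overlapped there. The array that gave 7.91 is the one with the Pcx difference of 2.72, within the range of the spastic arrays. Without that array, the spastic minus control difference in Ugt8a was -3.97 (adjusted p = 7.27e-05). With the Pcx difference as a term in the model it was -2.22 with an adjusted p of 0.0607, and no member was called in that comparison. The Pcx difference was itself higher in spastic than in control cord, with means of 2.38 and 1.73. A fit with it therefore cannot tell the Pcx difference from the group difference. The part of RNA quality in the Ugt8a values was not tested. The call against B6C3Fe was lost on the 1a arrays alone, at -5.04 with an adjusted p of 0.0735.

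**Figure D2:**
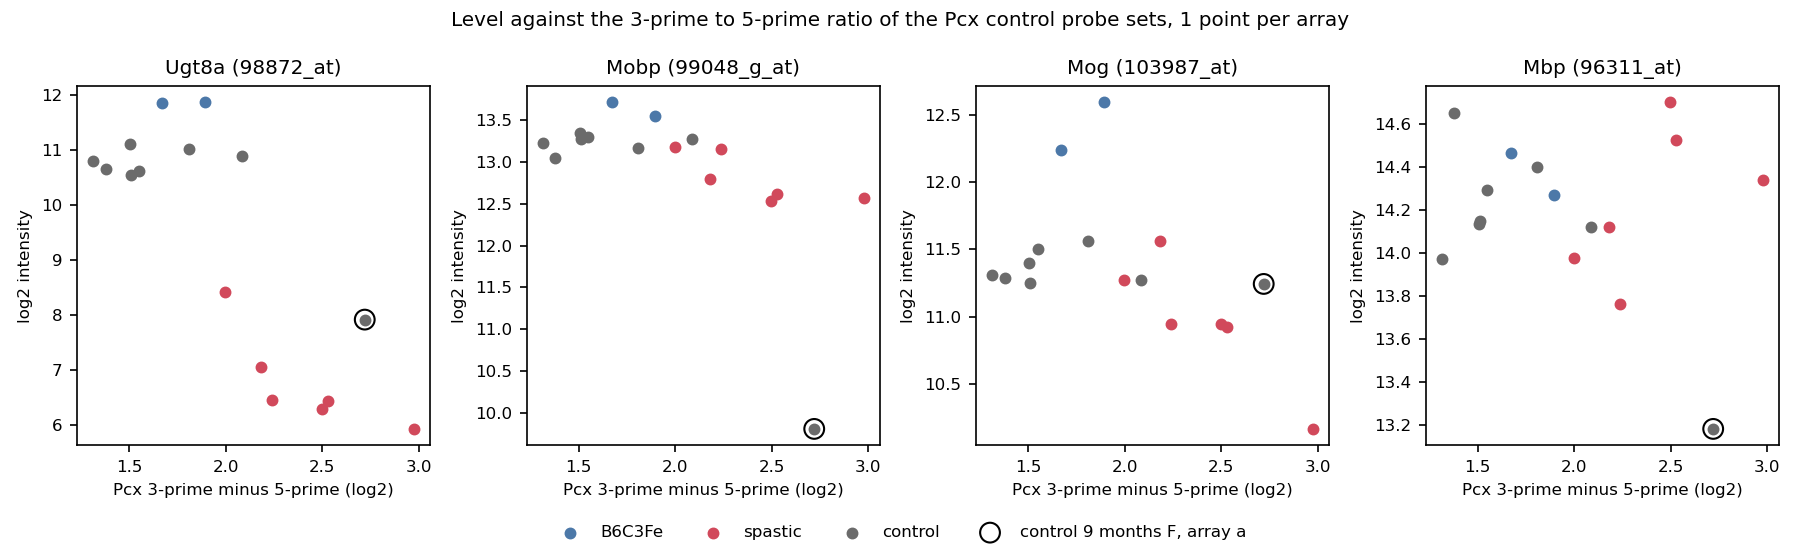
Log2 intensity of Ugt8a, Mobp (99048_g_at), Mog and Mbp (96311_at) on the y axes against the log2 difference between the 3-prime and 5-prime Pcx control probe sets on the x axes, 1 point per array, coloured by group, with a ring around array a of the 9-month female controls. That array lies at 2.72 on the x axis and is the lowest control array for Ugt8a (7.91), Mobp (9.81) and Mbp (13.18), but not set apart for Mog (11.24 against 11.25 to 11.56).

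The 3 probe sets whose values lay closest to those of Ugt8a over the 10 samples, each centred on its own mean, were those of Ssr3, Matr3 and Nudt4, with root mean square differences of 0.66, 0.75 and 0.87. They were chosen by that likeness, so their values are a description. Ssr3 (104249_g_at), which encodes a subunit of the translocon-associated protein complex, was close to the floor in spastic cord, at 5.97 on average, and at 9.46 in control cord and 9.84 in B6C3Fe. For Matr3 (96011_at), a nuclear matrix protein gene, the means were 7.17, 10.40 and 10.04, and for Nudt4 (160189_at), a diphosphoinositol polyphosphate phosphohydrolase gene, 7.12, 10.42 and 10.86. All 3 also stood lower on array a than on array b of the 9-month female control, by 4.25 for Ssr3, 1.78 for Matr3 and 3.04 for Nudt4.

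Genes of sphingolipid and galactolipid metabolism besides Ugt8a were counted at the probe set with the highest mean of each gene. Of the 11 tested, 1 was called higher in spastic than in control cord, Smpd1 (acid sphingomyelinase, 0.28), and 1 lower, Asah1 (acid ceramidase, -0.42), with a median of 0.00. Cers2, the ceramide synthase for very long chains, differed by 0.04, Arsa, which removes sulfate from sulfatide, by 0.00, and Ugcg, which joins glucose rather than galactose to ceramide, by -0.22, none of them called. Dimmer probe sets, too low to be tested, gave other values: -1.83 for Ugcg (94197_at), and -0.61 for Smpd1 (161789_r_at), the opposite direction to its tested one. Against B6C3Fe 0 of the 11 were called, with a median of 0.03. The tested Smpd1 probe set was no longer called under 17 of 27 alternatives.

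Promoters of 7 of the 10 genes were in the RefSeq table of GRCm38.p6, from 250 bases before to 50 after the start site. Those of Ugt8a (chr3:125938603-125938902, minus strand), Mal (chr2:127656646-127656945, minus strand) and Apod (chr16:31314759-31315058, minus strand) are shown because their lowest or highest group means differed: Ugt8a was lowest in spastic cord, Mal highest in B6C3Fe cord, and Apod, with no difference called, lowest in B6C3Fe cord. Capitals mark the words ACAAAG and ACAATG, on either strand, which are core letters bound by Sox proteins.
Ugt8a: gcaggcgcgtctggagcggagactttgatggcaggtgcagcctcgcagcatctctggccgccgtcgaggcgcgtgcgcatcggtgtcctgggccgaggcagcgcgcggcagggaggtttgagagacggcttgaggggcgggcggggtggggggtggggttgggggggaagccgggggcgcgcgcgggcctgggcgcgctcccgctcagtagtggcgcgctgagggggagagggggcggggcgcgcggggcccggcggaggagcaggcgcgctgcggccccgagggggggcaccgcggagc
Mal: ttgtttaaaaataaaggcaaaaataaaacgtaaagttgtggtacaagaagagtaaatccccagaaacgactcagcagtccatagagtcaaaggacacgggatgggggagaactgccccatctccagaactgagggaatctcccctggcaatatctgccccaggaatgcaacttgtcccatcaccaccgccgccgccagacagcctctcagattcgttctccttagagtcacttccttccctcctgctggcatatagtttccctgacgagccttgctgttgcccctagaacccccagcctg
Apod: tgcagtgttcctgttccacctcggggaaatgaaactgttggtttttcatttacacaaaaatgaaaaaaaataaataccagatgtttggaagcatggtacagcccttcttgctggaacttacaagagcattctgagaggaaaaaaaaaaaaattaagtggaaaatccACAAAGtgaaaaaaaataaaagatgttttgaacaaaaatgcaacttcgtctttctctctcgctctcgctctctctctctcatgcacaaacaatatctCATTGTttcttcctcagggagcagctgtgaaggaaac

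The Ugt8a stretch is 78.3% G and C with 40 CG pairs, that of Mal 51% with 8, and that of Apod 37.3% with 4, beside medians of 52.7% and 7 over 32851 promoters of the same length. Either word occurs in 28.6% of those promoters. Among the 9 promoters of the 7 members it was found only in that of Apod, at -84 as ACAAAG and at 14 as CATTGT, the reverse complement of ACAATG, counted from the start site. The words were not found in these windows of Ugt8a and Mal. Car2, Sox10 and Mbp are named only.

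Mog, Mal, Cldn11 and Mbp encode proteins of the sheath itself. Mog is a protein of the outermost myelin surface, and Mal is a proteolipid of membrane domains rich in glycolipid. Cldn11 forms the tight junctions between the layers of the sheath, and Mbp holds the inner faces of the membrane together. Within this set the clearest contrast was between the 1-month B6C3Fe cord and the 9 older samples.

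Mal (99089_at) was at 13.56 in B6C3Fe. Spastic samples were at 12.44 and 12.60 at 2 months, 12.29 in the sev sample, 12.16 in the 3+ month sample and 12.40 at 6 months. Control samples were at 12.28 and 12.10 at 9 months and 12.09 and 11.72 at 12 months. The B6C3Fe sample was above all 9 others, and the spastic and control samples overlapped between 12.16 and 12.28. Spastic minus B6C3Fe was -1.19 (SE 0.21, adjusted p = 0.0187 by limma), or 2.27-fold lower, and B6C3Fe minus control was 1.52 (SE 0.21, adjusted p = 0.0160), or 2.86-fold higher. The first of these calls was lost with the Pcx term (-1.03, adjusted p = 0.109) and on the 1a arrays (-1.14, adjusted p = 0.0735). Spastic minus control, 0.33 (95% interval 0.05 to 0.61, adjusted p = 0.0889), was not called.

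Cldn11 (100044_at) was likewise highest in B6C3Fe, with less spread among the others. It was at 12.86 in B6C3Fe, 12.17 and 12.12 in spastic cord of 2 months, 12.05 in the sev sample, 12.11 in the 3+ month sample and 11.88 at 6 months. The 4 control samples lay between 11.92 and 11.95, within the range of the spastic samples. The B6C3Fe sample differed from the spastic group by 0.80 (SE 0.14, adjusted p = 0.0187), being 1.74-fold higher, and from the control group by 0.93 (SE 0.14, adjusted p = 0.0193), being 1.91-fold higher. The first call was lost with the Pcx term (spastic minus B6C3Fe -0.77, adjusted p = 0.0950), and both were lost on the 1a arrays (adjusted p = 0.0899 and 0.0731). The narrow control range holds for sample means only, since single control arrays ran from 11.61 to 12.23. The second Cldn11 probe set (161529_r_at) did not place B6C3Fe highest, at 7.49 in B6C3Fe, 7.15 ± 0.43 (SD, n = 5) in spastic and 7.71 ± 0.67 (SD, n = 4) in control cord, and was too low to be tested.

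Mog (103987_at) was also highest in B6C3Fe, at 12.42. In spastic cord it was at 11.56 and 11.27 at 2 months, 10.95 in the sev sample, 10.16 in the 3+ month sample and 10.93 at 6 months. Controls lay between 11.28 and 11.43, with a mean of 11.35 ± 0.06 (SD, n = 4) against 10.98 ± 0.52 (SD, n = 5) in spastic cord. Of the 2-month spastic samples 1 was above and 1 just below the control range, and the 3 older ones were below it. The difference between spastic and control, -0.38 (95% interval -0.85 to 0.09, adjusted p = 0.248), was not called. It was -0.18 without the 3+ month sample (adjusted p = 0.428) and 0.29 with the Pcx term (adjusted p = 0.481). Over its 27 alternatives it ran from -0.95 to 0.29, and it was called lower under 1 of them. Spastic minus B6C3Fe, -1.44 (SE 0.35, adjusted p = 0.0584), and B6C3Fe minus control, 1.06 (SE 0.36, adjusted p = 0.178), were not called either. The first of these was close to the threshold and was called under 11 of its 24 alternatives.

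The probe sets closest to Mog over the 10 samples were those of Marcks, Nrep and Gamt, with root mean square differences of 0.20, 0.22 and 0.23. Marcks (96865_at), a substrate of protein kinase C at the membrane, was at 11.29 in B6C3Fe, 10.20 on average in spastic and 10.51 in control cord. Gamt (101408_at), the enzyme of the last step of creatine synthesis, was at 11.03, 9.45 and 9.55. Nrep (160522_at) was at 11.27, 10.43 and 10.53. They too were chosen by likeness and carry no test.

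Mbp did not separate the groups on either probe set. On 96311_at it was at 14.37 in B6C3Fe and, in spastic cord, at 14.12 and 13.98 at 2 months, 13.76 in the sev sample, 14.34 in the 3+ month sample and 14.61 at 6 months. Control samples were at 13.58 and 14.22 at 9 months and 14.53 and 14.13 at 12 months, so the groups overlapped over nearly their whole ranges. Spastic minus control was 0.05 (95% interval -0.40 to 0.50, adjusted p = 0.896), so that a difference in either direction of more than 0.50 lay outside the interval. Spastic minus B6C3Fe was -0.21 (adjusted p = 0.776) and B6C3Fe minus control 0.25 (adjusted p = 0.769). The lowest control value, 13.58, was again the 9-month female, whose array a gave 13.18 and array b 13.97.

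On the dimmer Mbp probe set (96310_at), B6C3Fe was at 9.47, spastic cord at 9.52 ± 0.28 (SD, n = 5) and control cord at 9.27 ± 0.19 (SD, n = 4). Its 3 differences were 0.25, 0.05 and 0.20 for spastic minus control, spastic minus B6C3Fe and B6C3Fe minus control, none of them called. The 3+ month spastic sample, at 10.004, was the highest of the 10 samples. Emd, Lmnb1 and Myrf lay closest to Mbp (96311_at), with root mean square differences of 0.14, 0.17 and 0.17. Myrf (104266_at) encodes a transcription factor needed for central myelin and was at 10.89 in B6C3Fe, 10.46 in spastic and 10.32 in control cord.

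Gsn, Car2 and Apod encode soluble or secreted proteins that oligodendrocytes make in quantity. Gelsolin, from Gsn, severs and caps actin filaments. Carbonic anhydrase 2, from Car2, interconverts carbon dioxide and bicarbonate, and apolipoprotein D, from Apod, carries small lipids. Gsn was called in the comparisons with B6C3Fe, Car2 in that of spastic with control, and Apod in none.

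Gsn (93750_at) was at 13.44 in B6C3Fe. It was at 12.30 and 12.31 in spastic cord of 2 months, 11.85 in the sev sample, 12.21 in the 3+ month sample and 11.88 at 6 months. Controls were at 12.09 and 11.78 at 9 months and 11.36 and 11.58 at 12 months. The B6C3Fe sample was above all others, and the spastic and control ranges overlapped between 11.85 and 12.09. B6C3Fe exceeded control by 1.73 (SE 0.26, adjusted p = 0.0160 by limma), or 3.33-fold, and spastic was lower than B6C3Fe by 1.33 (spastic minus B6C3Fe -1.33, SE 0.25, adjusted p = 0.0238). The second of these calls was lost with the Pcx term (-1.40, adjusted p = 0.0940), on the 1a arrays (-1.28, adjusted p = 0.0831) and without the 2 spastic samples titled male (-1.28, adjusted p = 0.0611). Spastic minus control, 0.41 (95% interval 0.07 to 0.74, adjusted p = 0.0878), was not called. Among controls, 12 minus 9 months was -0.46 (95% interval -0.84 to -0.09), the only member with an unadjusted p under 0.05 for that contrast, and its adjusted p was 0.776.

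Car2 (92642_at) did not set B6C3Fe apart. It was at 13.46 in B6C3Fe, and in spastic cord at 13.14 and 13.25 at 2 months, 12.82 in the sev sample, 12.69 in the 3+ month sample and 13.44 at 6 months. Controls were at 13.63 and 13.52 at 9 months and 13.48 and 13.61 at 12 months. Every spastic sample was below every control sample, with that of 6 months close to the lowest control, and on single arrays the groups overlapped. Spastic minus control was -0.50 (SE 0.15, 95% interval -0.82 to -0.18, adjusted p = 0.0351), or 1.41-fold lower. The call was lost under 13 of 27 alternatives, among them 7 of the 10 fits that left out 1 sample, and without the 2 spastic samples titled male the difference was -0.29 (adjusted p = 0.153). Within the spastic group, 6 months minus the mean of 2 and 3 months was 0.46 (95% interval 0.14 to 0.79, adjusted p = 0.426).

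Apod (93592_at) was lowest in B6C3Fe, at 13.00. It was at 13.32 and 13.16 in spastic cord of 2 months, 13.51 in the sev sample, 13.69 in the 3+ month sample and 13.47 at 6 months, and in controls at 13.61 and 13.93 at 9 months and 13.82 and 13.87 at 12 months. The order of the group means was thus the reverse of that of Mal and Gsn, although the 2 B6C3Fe arrays were apart, at 13.32 and 12.69, and the higher of them lay within the spastic range. No difference was called: spastic minus control was -0.38 (SE 0.12, adjusted p = 0.0537), B6C3Fe minus control -0.80 (SE 0.21, adjusted p = 0.0936) and spastic minus B6C3Fe 0.42 (SE 0.20, adjusted p = 0.280). The first was called under 9 of its 27 alternatives.

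**Figure D3:**
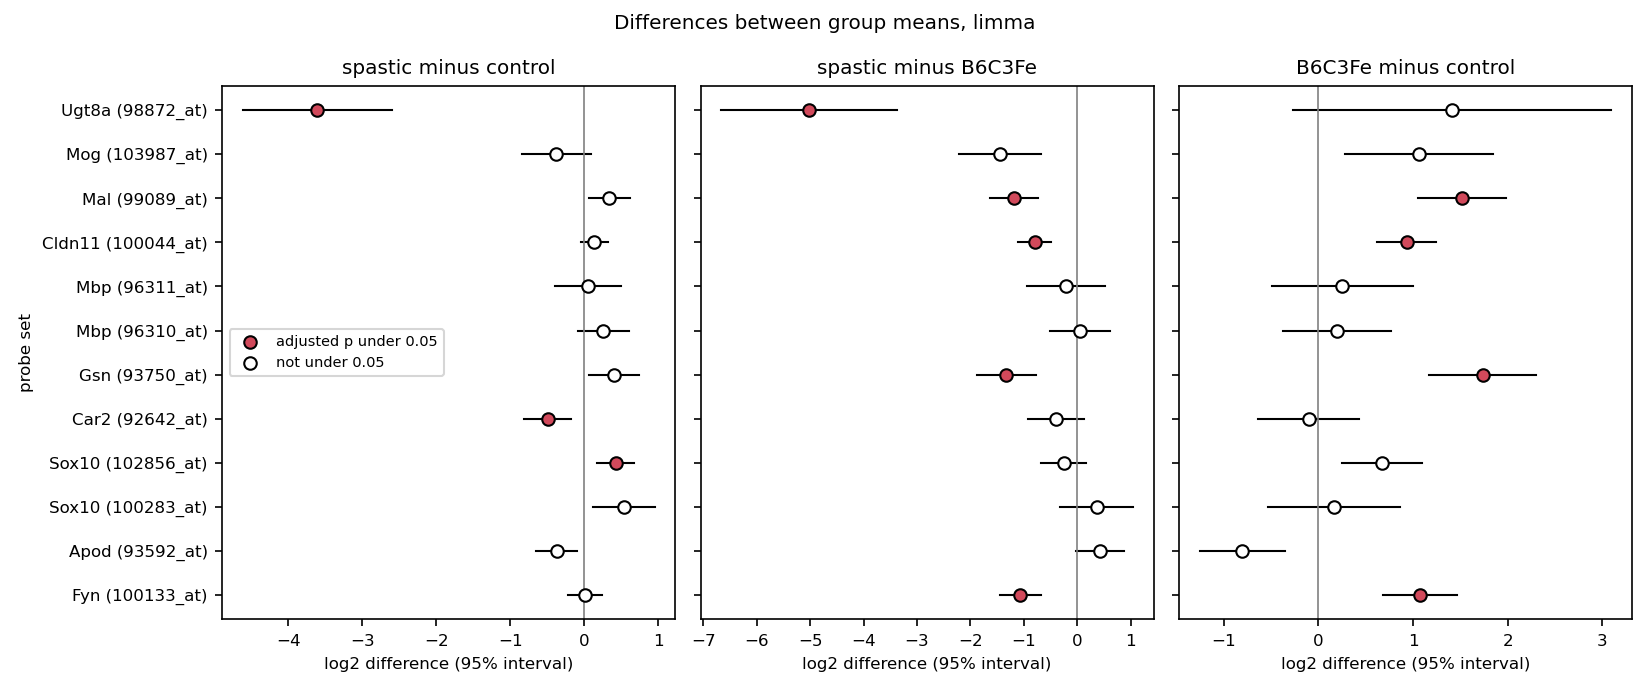
Log2 differences between group means for the 12 tested member probe sets, in 3 panels for spastic minus control, spastic minus B6C3Fe and B6C3Fe minus control; points are limma estimates, lines are 95% intervals, and filled points have an adjusted p under 0.05. Ugt8a, Car2 and Sox10 (102856_at) are filled in the first panel, Ugt8a, Mal, Cldn11, Gsn and Fyn in the second, and Mal, Cldn11, Gsn and Fyn in the third.

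Sox10 and Fyn act inside the cell upstream of myelin. Sox10 is a transcription factor of the whole oligodendrocyte lineage and binds regulatory regions of myelin genes. Fyn is a Src family kinase that relays signals from the axon and promotes local translation of Mbp.

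Sox10 (102856_at) was at 11.48 and 11.51 in spastic cord of 2 months, 11.19 in the sev sample, 11.64 in the 3+ month sample and 11.42 at 6 months. Control samples were at 10.94 and 11.13 at 9 months and 10.81 and 11.24 at 12 months. The sev sample and the 12-month male control overlapped, and otherwise the spastic samples were above the controls. The difference was 0.42 (SE 0.12, 95% interval 0.16 to 0.68, adjusted p = 0.0274 by limma), or 1.34-fold higher, and the call was lost under 8 of 27 alternatives, 4 of them with 1 sample left out. B6C3Fe, at 11.70, was above all spastic and control samples, but neither its difference from control, 0.67 (adjusted p = 0.127), nor that of spastic from it, -0.25 (adjusted p = 0.501), was called.

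The second Sox10 probe set (100283_at) had its spastic mean, 9.79 ± 0.16 (SD, n = 5), above its control mean, 9.26 ± 0.47 (SD, n = 4), as the first did. The difference of 0.53 (SE 0.19, adjusted p = 0.0739) was not called. Its B6C3Fe value, 9.42, lay below all 5 spastic samples, unlike on the first probe set. Its control spread was wide, from 8.58 in the 12-month female to 9.64 in the 12-month male.

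Fyn (100133_at) was at 11.77 in B6C3Fe and between 10.52 and 10.94 in the other 9 samples. Spastic cord was at 10.94 and 10.58 at 2 months, 10.75 in the sev sample, 10.63 in the 3+ month sample and 10.61 at 6 months. The means were 10.70 ± 0.15 in both spastic (SD, n = 5) and control cord (SD, n = 4), with a difference of 0.00 (95% interval -0.23 to 0.24, adjusted p = 0.985). Spastic minus B6C3Fe was -1.07 (SE 0.17, adjusted p = 0.0126), or 2.10-fold lower, and B6C3Fe minus control was 1.07 (SE 0.18, adjusted p = 0.0223). The first call was lost with the Pcx term (-1.08, adjusted p = 0.0578). The second was lost on the 1a arrays (1.10, adjusted p = 0.0920), with titled sex in the model (1.06, adjusted p = 0.0512) and without the 9-month male control (1.05, adjusted p = 0.0594). Of the 14 tested genes among other Src family kinases and partners of Fyn, Itgb1 (0.46) and Cdk5 (0.43) were called higher and Cntn1 (-0.62) lower in spastic than in control cord, and 0 were called in the comparisons with B6C3Fe. A second Itgb1 probe set differed by -0.10, and a dimmer probe set of Hnrnpa2b1 (93118_at), which encodes a protein that binds Mbp RNA, was called lower (-0.64, adjusted p = 0.00610) while its brighter one, at -0.23, was not.

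The ages within a group did not separate the members. For control 12 minus 9 months, spastic 6 minus 2 and 3 months, and the sev sample minus the other 4 spastic samples, 0 of the 12 were called, where 0.0134%, 0.429% (0.362% higher and 0.0671% lower) and 0.0134% of all probe sets were called; 1, 1 and 0 of the 12 had an unadjusted p under 0.05. These contrasts rest on 1 or 2 samples on a side, and their intervals for Ugt8a were -0.12 to 2.01, -1.78 to 0.60 and -2.24 to 1.26. Each of these intervals takes in a doubling or a halving, so a difference of that size was not detectable for Ugt8a within a group.

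Other myelin and oligodendrocyte genes were called between spastic and control cord about as often as all probe sets, of which 19% were called. Of 43 listed, 22 were on the array and 20 were tested; 2 were called higher and 2 lower, with a median of -0.06 against -0.03 over all probe sets. The higher ones were Abca2 (0.65), a lipid transporter, and Nkx6-2 (0.44), a transcription factor of maturing oligodendrocytes. The lower ones were Evi2a (-0.89, called lower on both its probe sets), a membrane protein gene, and Anln (-0.56), an actin-binding protein found with septins in myelin. In the comparisons with B6C3Fe 0 of the 20 were called, with medians of -0.22 for spastic minus B6C3Fe and 0.24 for B6C3Fe minus control.

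Mag, an adhesion protein of the innermost myelin layer, was at 13.18 in B6C3Fe, 12.69 ± 0.18 (SD, n = 5) in spastic and 12.79 ± 0.16 (SD, n = 4) in control cord on 102405_at, and its spastic minus control difference of -0.10 (adjusted p = 0.573) was not called. Mobp, a small basic protein of compact myelin, is read by 4 probe sets, whose spastic minus control differences were -0.28, -0.50, 0.03 and 0.05, none called. Of these, 100536_at was at 13.43 to 13.57 in the 4 younger spastic samples and at 14.68 at 6 months, a difference of 1.17 (SE 0.17, adjusted p = 0.0234) that was lost under 6 of 15 alternatives and was 0.44 after quantile normalization. The other 3 Mobp probe sets did not show it, at -0.41, -0.14 and -0.35. On array a of the 9-month female control those 3 were at 10.48, 11.46 and 9.81, against 13.11, 13.64 and 13.23 on array b.

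Genes of oligodendrocyte precursors and immature oligodendrocytes were represented by 7 tested genes. Sox4 (0.46) was called higher in spastic than in control cord, with -0.14 on its second probe set, and Id4 (-0.50) and Id2 (-0.47), inhibitors of differentiation, were called lower. Pdgfra, the receptor that defines the precursors, differed by -0.06 (adjusted p = 0.840). Against B6C3Fe 0 of the 7 were called. These counts take the probe set with the highest mean of each gene; a dimmer one of Ptprz1 (92378_at), a receptor phosphatase gene, was called lower in spastic cord in both comparisons, by -1.30 against control (adjusted p = 0.000656) and -1.46 against B6C3Fe (adjusted p = 0.0185), while its brightest one gave -0.35 and 0.37 and its dimmest, too low to be tested, -1.42 and -0.22.

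**Figure D4:**
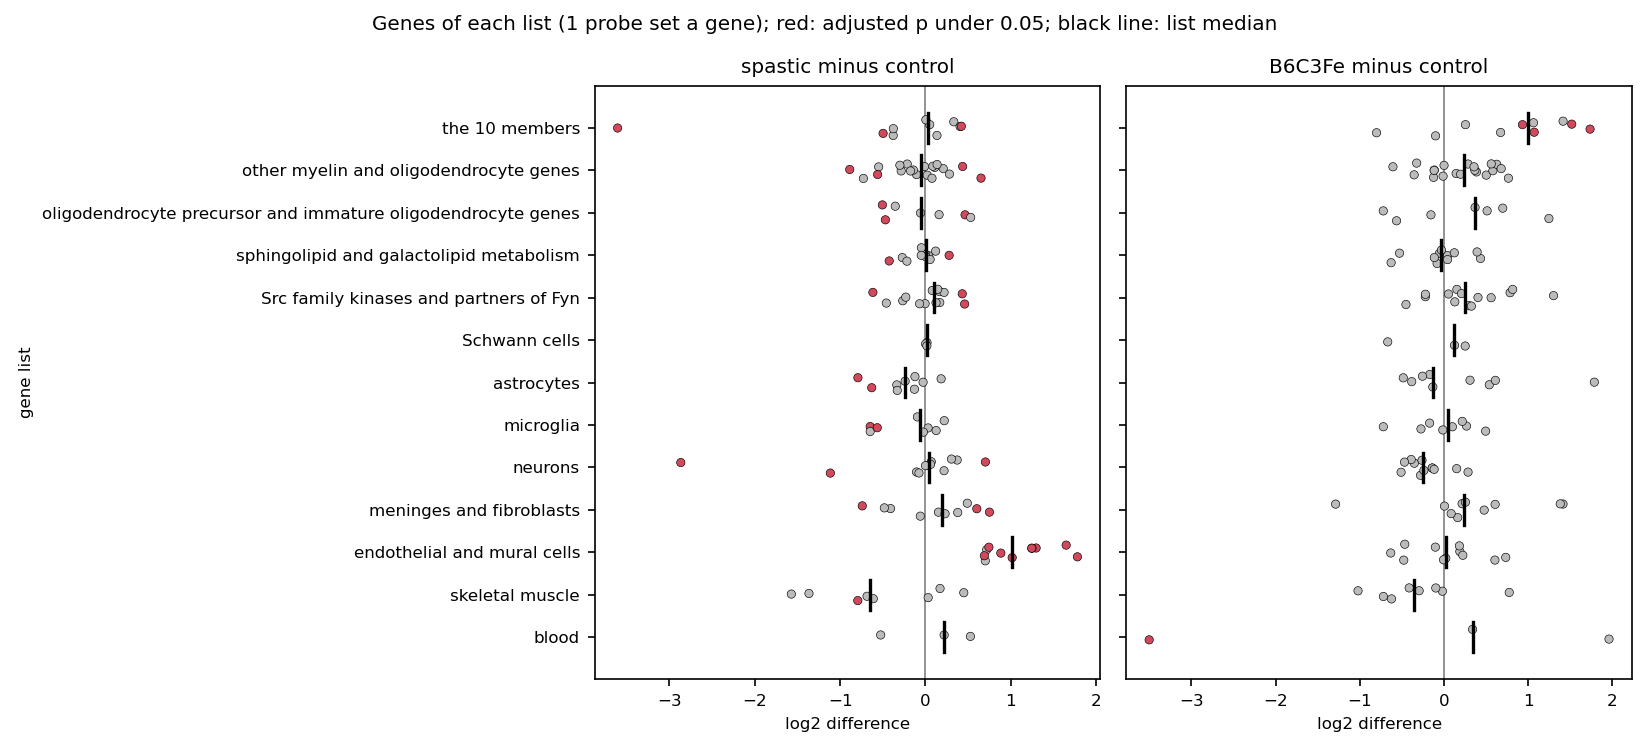
Log2 differences of spastic minus control (left) and B6C3Fe minus control (right) for each gene of the 10 members and of 12 gene lists, 1 point per gene at its probe set with the highest mean; red points have an adjusted p under 0.05 and black lines are list medians. The members' medians are 0.03 and 0.998, Ugt8a is the leftmost member at -3.61, and the endothelial and mural list has its median at 1.02 on the left.

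Markers of other cell types were counted in the same way, where 19% of all probe sets were called between spastic and control cord. Of 11 tested genes of endothelial and mural cells, 9 were called higher in spastic than in control cord and 0 lower, with a median of 1.02, and their summed intensity was 8382 to 10848 in spastic samples, 4073 to 4840 in controls and 4781 in B6C3Fe. Astrocyte markers had 0 called higher and 2 lower of 9 (Aqp4 and S100b), microglia 0 and 2 of 8 (Cx3cr1 and Ctss), neurons 1 and 2 of 12, meninges and fibroblasts 2 and 1 of 10, skeletal muscle 0 and 1 of 8, with Myh2 at the floor on all arrays, and blood 0 of 3. Dimmer probe sets of 4 genes were called where the brightest, which was counted, was not: Gja1 (-0.79) of astrocytes, Tubb3 (0.52) of neurons, Ogn (-2.14) of meninges and Myh4 (-3.35) of muscle. Schwann cells, which make the myelin of the nerve roots, had 0 of 3 called in each comparison. The summed intensity of the 10 members was 51827 to 66953 in spastic samples, 58347 to 68450 in controls and 87630 in B6C3Fe. The part of these markers in the members' differences was not tested.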

How the data were processed

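The deposited table gives 1 linear intensity per probe set and array, scaled by the authors: the mean after trimming 2% at each end was 800.4 to 800.5 on all 16 arrays, so the values were not normalized again. The sources used here do not name the software behind the deposited intensities. Array medians were 289 to 383.6, and 14.7% to 24.1% of probe sets were at or under the floor. The number of arrays limits the precision.

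Intensities were floored at the 20th percentile and log2 was taken, so a difference of a dim gene is understated. No test used the 66 control probe sets. Testing required a mean log2 intensity over samples above the 40th percentile, 7.61, and each was its own feature. Symbols came from the platform annotation (10833 probe sets with 1 symbol, 396 with several, 1193 with none); 10817 were matched by Entrez ID to RefSeq GRCm38.p6, and 0 symbols changed. Promoters are RefSeq's.

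Tests used limma 3.58.1 in R 4.3.3 (lmFit, eBayes with a trend; 2-sided; Benjamini-Hochberg), on 3 group means without covariates or, within groups, on 6 means of group and age, with 3+ months taken as 3; the sev contrast used 4 means. Each difference is the group named first minus the group named second. Nothing says that samples came from separate animals, so p-values measure only the spread between these samples, which may be technical. Groups, ages, sexes and letters come from the titles; the M of Spa-M was not interpreted.

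The 10 genes, the gene lists and the tests were chosen with earlier results of these data known. Named genes were every member probe set; Mag, Mobp and Cnp (another gene of this rule is not reported here); the called members of each list with the 4 largest differences; the 3 closest probe sets to Ugt8a, Mog and Mbp; and the checks of mutation, sex and RNA quality. Pdgfra, Cers2, Arsa, Ugcg and genes named for a dimmer probe set were added after their values were seen. The fits were checked on simulated data with known changes, which does not test the limits set by these samples. Letters were checked as pairs. Of 15 correlations between the b minus a differences of 6 samples, from -0.05 to 0.17, 1 was over 0.1. Letters were therefore not used as pairs in the main fits, though weak correlations do not show that samples were unpaired.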

Additional observations from a re-analysis of the deposited data

Results flagged for a closer look

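Of 26 groups of 4 or 5 samples examined, 1 held a sample far from the others, where chance gives about 1 in 20. Mbp (96310_at) was at 10.004 in the 3+ month spastic sample, and the next spastic sample was at 9.48, a gap of 0.76 of the group's range against a critical value of 0.71. On the brighter Mbp probe set (96311_at) the same sample, at 14.34, was within the spastic range of 13.76 to 14.61.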

How the results depend on the processing

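Ugt8a was lower in spastic than in control cord under all 26 alternatives that gave a value, from -4.41 to -2.22, and was called in all but the model with the Pcx difference. With the filter at the 60th percentile it was not tested, since its mean was at percentile 57.0. Among named probe sets in that comparison, differences not called in the main fit changed sign 31 times under alternatives in which they were not called either. With B6C3Fe counted as control and age (log2) as a term, Cldn11 (-0.34, adjusted p = 0.0373), Fyn (-0.53, 0.0254) and Gsn (-0.50, 0.0429) turned from uncalled positive to called negative differences by limma. In that fit the B6C3Fe sample, highest for these genes, was the only control younger than the spastic samples. The fit therefore cannot tell age from stock.

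For spastic minus control, the 3 members called became 1 without the filter, 6 with every array as a replicate or with samples as a random block, 5 with the letter as a replicate block, 0 with the Pcx term, 5 with log2 of age, and 1 to 3 with 1 sample left out; it was 1 without the 2-month sample titled Spa1 and without the 12-month female control. The 1417 probe sets called in all became 771 on the 1a arrays, 43 with the Pcx term, of which 13.95% were higher, 861 without the spastic samples titled male, 773 with log2 of age, and 780 (without the 12-month female control) to 1452 with 1 sample left out.

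For spastic minus B6C3Fe, the 5 members became 1 on the 1a arrays and 1 with the Pcx term, with differences on that term of -0.77 for Cldn11, -1.08 for Fyn, -1.40 for Gsn, -1.03 for Mal and -3.74 for Ugt8a, the one still called. The 165 probe sets became 392 without the filter, 872 with every array, 436 with the random block, 705 with the replicate block, 23 on the 1a arrays, 94 without a trend, 22 with the Pcx term, 90 without the spastic samples titled male, 279 without array a of the 9-month female control, and 84 to 203 with 1 sample left out, the lower counts coming without the sev, the Spa1 (89) and the 6-month (108) spastic samples and without the 9-month male control (85).

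For B6C3Fe minus control, the 4 members became 7 with every array, with the random block and with the replicate block, and 2 on the 1a arrays. The 52 probe sets became 305 without the filter, 79 after quantile normalization, 771, 380 and 753 with every array, the random block and the replicate block, 12 on the 1a arrays, 33 without a trend, 26 with titled sex, 111 with the Pcx term, and 20 to 93 with 1 sample left out, 93 without the 3+ month spastic sample, 20 without the 9-month male control, and 26 to 34 without Spa1, sev or 1 of the other 3 controls.

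No member was called within groups under any alternative. The counts over all probe sets were, for control 12 minus 9 months, 1, with 13 without the filter and with every array, 0 without a trend and with titled sex, and 0 to 2 with 1 sample left out; for spastic 6 minus 2 and 3 months, 32, with 2 after quantile normalization, 100 with every array, 0 without a trend, 4 with titled sex, and 20 (without Spa2) to 40 left out; and for sev, 1, with 20 without the filter, 2 with every array, 0 without array a of the 9-month female control, and 0 to 5 left out. The causes of these changes were not tested. Leaving out the only sample of a side gave no value. The fits without the spastic samples titled male, without that array and with the Pcx term were chosen with earlier results known, and their use within groups after seeing the data.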
